A study of Mus musculus with 4 samples.

Results

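Naive CD4 T cells are held in their resting state by a set of transcription factors, and the transcripts of 10 of them were examined here in splenic CD4 T cells, namely Foxo1, Foxp1, Lef1, Bach2, Satb1, Ikzf1, Bcl11b, Ets1, Runx1 and Runx3. The genes were chosen by name, with earlier results of these data known. Each was represented by the probe set of highest mean intensity among those that a platform annotation pairs with that gene alone. All 10 were found among the 19937 genes so represented, each with a single probe set, out of 34760 probe sets on the array. Affymetrix Mouse Gene 1.0 ST arrays, which measure RNA as the brightness of hybridised probes, had been run on 2 samples of Ifitm-/- cells (called IfitmF-/- in the study) and 2 samples of wild-type (WT) cells. The Ifitm-/- mice lack the whole family of interferon-inducible transmembrane genes in every cell and are described in the study as on a C57BL/6 background. All mice were adults of 6 to 8 weeks. Both genotypes were untreated, and each array held cells pooled from a pair of mice after a purification of its own. The cells were obtained from spleen by lysis of red cells and negative selection, with no sort for naive surface markers, a step that does not remove memory or regulatory CD4 T cells. For these bulk samples, fewer cells of a type and less RNA per cell cannot be told apart. The study asked how loss of the Ifitm family alters the resting CD4 T cell transcriptome.

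These factors act at several levels of the resting programme. Foxo1 and Foxp1 bind forkhead sites. Foxo1 keeps the genes of homing and of the IL-7 receptor on, while Foxp1 opposes it at the Il7r gene, and both hold naive cells in quiescence. Lef1 binds DNA through a high-mobility group box and acts with Tcf1, while Bach2 occupies sites that AP-1 factors use after stimulation and represses effector genes. Satb1, Ikzf1 (Ikaros) and Bcl11b organise or repress chromatin, and Ets1, Runx1 and Runx3 occupy the enhancers of T cell genes from the thymus onwards.

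The levels below are log2 RMA intensities on each array, and changes are Ifitm-/- minus WT on that scale. Ifitm3 was at 4.61 and 4.36 on the Ifitm-/- arrays and 9.26 and 8.91 on the WT arrays, as the genotype labels state. Xist, which is transcribed from the inactive X of females, was at 4.86 and 4.43 on the Ifitm-/- arrays and 11.32 and 11.25 on the WT arrays. Sex and genotype therefore cannot be told apart in any comparison here, those of the 10 genes, all autosomal, included. The T cell label held, with Cd3e at 12.14 and 12.07 on the Ifitm-/- arrays and 12.08 and 12.15 on the WT arrays, and Cd4 at 11.79 and 11.71 on the Ifitm-/- arrays and 11.44 and 11.52 on the WT arrays. The mean level of 13 B cell markers was 7.65 and 8.11 on the Ifitm-/- arrays and 9.39 and 7.84 on the WT arrays, so WT replicate 1 stood apart. Platelet markers (4 genes) were highest on Ifitm-/- replicate 2, at a mean of 10.47, against 9.15 on the other Ifitm-/- array and 8.99 and 8.54 on the WT arrays.

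Of the 10 genes, limma called 2, Ikzf1 and Bcl11b, both higher in Ifitm-/- cells, and 0 lower at an adjusted p under 0.05. At an unadjusted p under 0.05 there were 4, the others being Foxo1 and Satb1, both at lower values in Ifitm-/- cells. The same fit called 8.43% of all probe sets (4.48% higher and 3.95% lower), 8.57% of all genes (4.96% higher and 3.61% lower) and 20.7% of the 2028 genes at least as bright as the dimmest of the 10 (8.83% higher and 11.9% lower). At an unadjusted p under 0.05 the share of all genes was 25.8%. The called share of 20% was thus close to that of genes of like brightness. The median change of the 10 was -0.073, and that of all genes was -0.020. The median size of change, without regard to sign, was 0.19 for the 10 and 0.25 for genes of like brightness. None of the 10 changed 2-fold. The genotypes did not overlap for 8 genes, of which 3 were higher and 5 were lower in Ifitm-/- cells, while 58.7% of all genes (27.9% higher and 30.8% lower) and 81.2% of genes of like brightness (41.9% higher and 39.3% lower) did not overlap either. All 10 were brighter than most of the array, with 89.3% to 99.3% of probe sets dimmer on each array.

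**Figure D1:**
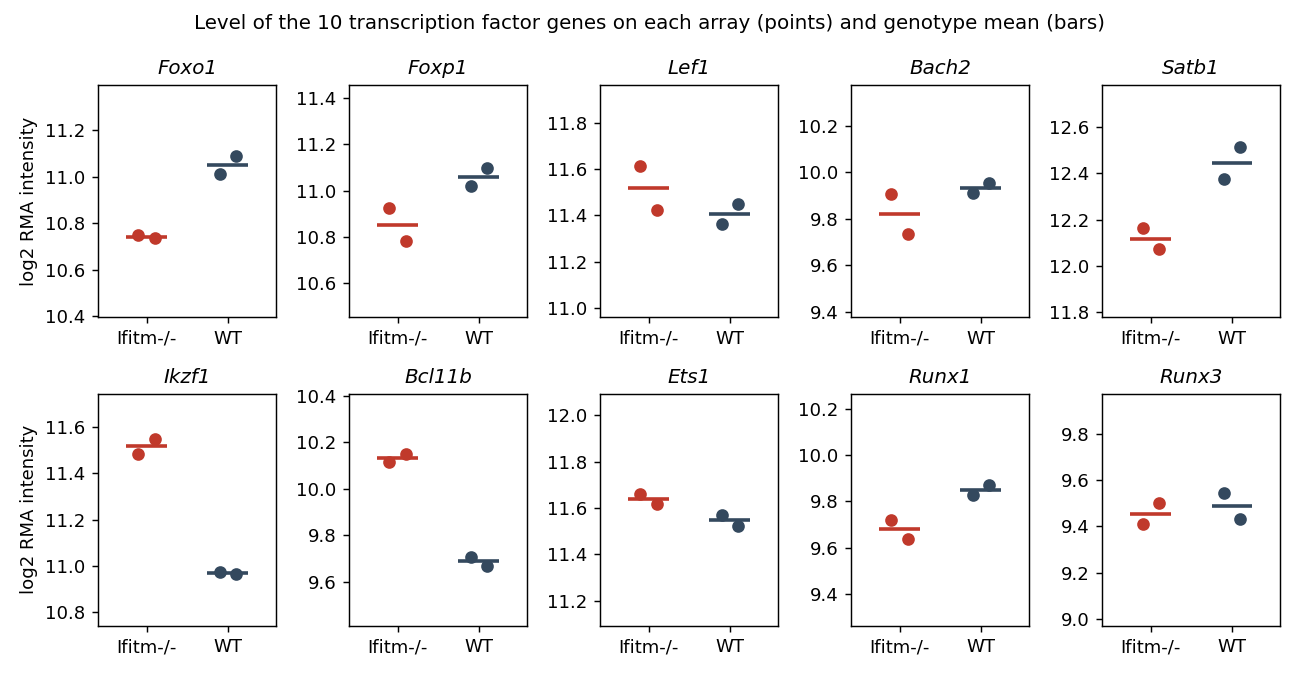
Log2 RMA intensity (y axis, each panel spanning 1 log2 unit) of each of the 10 genes on the Ifitm-/- arrays (left, red) and the WT arrays (right, dark blue); points are arrays and bars are means of 2. Ikzf1 and Bcl11b lie higher on both Ifitm-/- arrays, Foxo1 and Satb1 lie lower, and Lef1 and Runx3 overlap.

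Ikzf1 and Bcl11b were the genes that rose. Ikzf1 encodes Ikaros, a zinc finger protein that recruits the NuRD repressor complex. Its level was 11.48 and 11.55 on the Ifitm-/- arrays and 10.97 and 10.97 on the WT arrays. Both Ifitm-/- arrays were thus higher than both WT arrays, with a gap of 0.51 between the nearest arrays. The change was 0.55 (95% interval 0.33 to 0.76), a 1.46-fold rise (adjusted p = 0.0332, limma). In linear units this was 2864 and 2991 on the Ifitm-/- arrays and 2011 and 2000.2 on the WT arrays. Among all genes, most of them dimmer, 90.7% had a smaller change. The median size of change was 0.15 over all genes and 0.25 over genes of like brightness to the members. Bcl11b, a zinc finger factor needed for T cell commitment in the thymus and for T cell identity afterwards, was at 10.11 and 10.15 on the Ifitm-/- arrays and 9.71 and 9.67 on the WT arrays. Again the genotypes did not overlap. The SD was 0.027 in either group (n = 2 each), and the standard error of the change in limma was larger, at 0.078. The change was 0.45 (95% interval 0.24 to 0.66), or 1.36-fold (adjusted p = 0.0459, limma). Both calls rested on all 4 arrays. Leaving out any of them gave changes of 0.51 to 0.58 for Ikzf1 (adjusted p = 0.0905 to 0.182, limma) and 0.43 to 0.46 for Bcl11b (adjusted p = 0.113 to 0.229), and 0 probe sets of the whole table were then called, with 6062 to 9107 at an unadjusted p under 0.05. Without WT replicate 1, the array richest in B cell markers, the change of Ikzf1 was 0.55 and that of Bcl11b 0.46.

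Satb1, the third of the chromatin organisers, leaned the other way. It was at 12.16 and 12.07 on the Ifitm-/- arrays and 12.37 and 12.51 on the WT arrays. The genotypes did not overlap, with a gap of 0.21 between the nearest arrays. The change of -0.33 (95% interval -0.58 to -0.072) missed the threshold (adjusted p = 0.122, limma).

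The forkhead genes were both at lower values in Ifitm-/- cells, without a call. Foxo1 was at 10.75 and 10.74 on the Ifitm-/- arrays and 11.01 and 11.09 on the WT arrays. The Ifitm-/- arrays hardly differed, and both lay under both WT arrays. The change was -0.31 (95% interval -0.52 to -0.091; adjusted p = 0.1, limma). Foxo1 passed only where the variance prior followed intensity (adjusted p = 0.0418) or in the methods' t-test without adjustment. Foxp1, which competes with Foxo1 at the Il7r enhancer, was at 10.92 and 10.78 on the Ifitm-/- arrays and 11.02 and 11.10 on the WT arrays. The arrays closest to each other across genotypes differed by 0.097, less than the Ifitm-/- arrays differed between themselves. Its change was -0.21 (95% interval -0.45 to 0.044; adjusted p = 0.257, limma).

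Neither Lef1 nor Bach2 was called. Lef1 was at 11.61 and 11.42 on the Ifitm-/- arrays and 11.36 and 11.45 on the WT arrays, so the genotypes overlapped. The change was 0.11 with an interval of -0.16 to 0.39 (adjusted p = 0.551, limma). Bach2 was at 9.91 and 9.73 on the Ifitm-/- arrays and 9.91 and 9.95 on the WT arrays. Ifitm-/- replicate 1 all but met the WT arrays, and replicate 2 was lower. The change was -0.11 with an interval of -0.37 to 0.15 (adjusted p = 0.523, limma). Bach2 is also expressed in B cells, and its level was 9.91 on the WT array richest in B cell markers and 9.95 on the other. The part of B cells in the Bach2 signal was not tested.

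**Figure D2:**
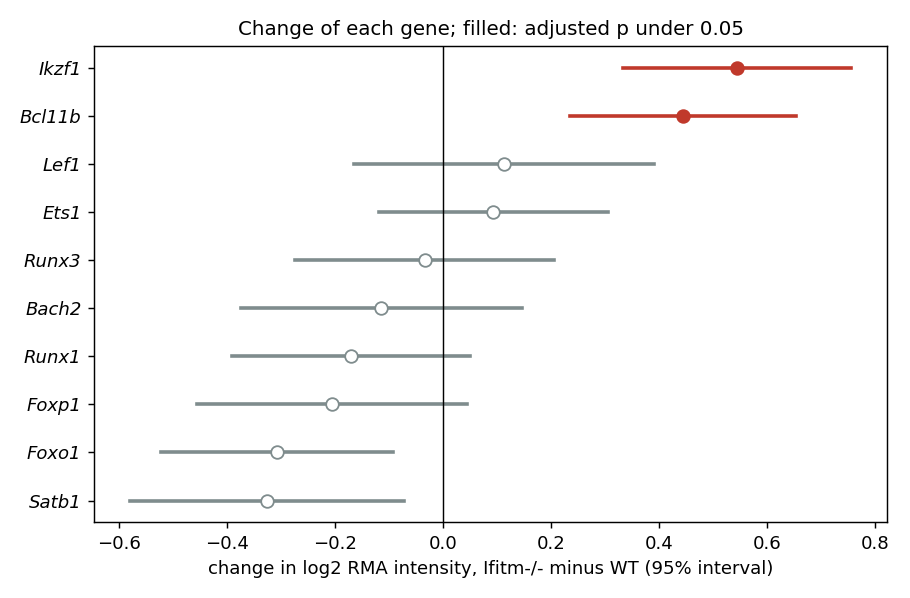
Change of each of the 10 genes (x axis, log2, Ifitm-/- minus WT) with its 95% interval from limma; filled red points have an adjusted p under 0.05 and open grey points do not. Only Ikzf1 and Bcl11b are filled, at 0.55 and 0.45, and Satb1 lies lowest at -0.33.

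Among the Ets and Runt factors, no gene was called. Ets1, which sustains the T cell receptor and IL-7 receptor genes, was at 11.66 and 11.62 on the Ifitm-/- arrays and 11.57 and 11.52 on the WT arrays. The genotypes were separated by only 0.048, and the change was 0.093 (95% interval -0.12 to 0.31; adjusted p = 0.519, limma). Runx1, the main Runt factor of naive CD4 T cells, was at 9.72 and 9.64 on the Ifitm-/- arrays and 9.83 and 9.87 on the WT arrays. Its change was -0.17 (95% interval -0.39 to 0.050; adjusted p = 0.282, limma). Runx3, which silences Cd4 in the CD8 lineage and is induced in Th1 cells, was at 9.41 and 9.50 on the Ifitm-/- arrays and 9.54 and 9.43 on the WT arrays. The values interleaved completely, with a change of -0.033 (95% interval -0.27 to 0.21; adjusted p = 0.851, limma). The intervals reach 0.39 in Lef1, -0.37 in Bach2 and -0.39 in Runx1, so the absence of a call does not show equal levels.

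The promoters of the members were searched for short motifs of the families to which the members belong. RefSeq promoter windows of the build GRCm38.p6 (250 bases before to 50 after each annotated start) were held for 9 of the 10 genes, 21 windows in all. Both strands were searched for TGTGGT (RUNX), GGAAGT (ETS), GTAAACA (forkhead), CTTTGA (TCF/LEF), TGAGTCA (BACH/MAF) and TGGGAA (Ikaros). These occur in 16.8%, 23.8%, 3.65%, 16%, 5.2% and 25.6% of all 32851 windows, in that order. Among the members' windows the RUNX motif was found in 2, the ETS motif in 6, the TCF/LEF motif in 4 and the Ikaros motif in 7, while the forkhead and BACH/MAF motifs were found in 0. The windows with a match belonged to 2 genes for RUNX, 3 for ETS, 4 for TCF/LEF and 4 for Ikaros. Some windows of Lef1 and of Satb1 overlap, so a site can be counted more than once. The windows shown are those of Bcl11b and Ikzf1, the genes that rose, and those of Runx1 and Runx3 that hold the RUNX motif; capitals mark every match to any of the 6 motifs. Bcl11b lies on the minus strand (chr12:108003365-108003664) and holds an ETS and a TCF/LEF match. Ikzf1 lies on the plus strand (chr11:11689927-11690226 for the downstream of its 2 windows), and neither of its windows holds a match. The distal Runx1 window lies on the minus strand (chr16:92826025-92826324) and the distal Runx3 window on the plus strand (chr4:135120395-135120694).
Bcl11b: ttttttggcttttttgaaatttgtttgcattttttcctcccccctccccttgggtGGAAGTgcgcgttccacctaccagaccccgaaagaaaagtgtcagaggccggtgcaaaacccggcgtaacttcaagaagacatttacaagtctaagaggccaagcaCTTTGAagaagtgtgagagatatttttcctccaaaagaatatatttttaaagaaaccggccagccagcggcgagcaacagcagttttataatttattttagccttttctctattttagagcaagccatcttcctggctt
Ikzf1: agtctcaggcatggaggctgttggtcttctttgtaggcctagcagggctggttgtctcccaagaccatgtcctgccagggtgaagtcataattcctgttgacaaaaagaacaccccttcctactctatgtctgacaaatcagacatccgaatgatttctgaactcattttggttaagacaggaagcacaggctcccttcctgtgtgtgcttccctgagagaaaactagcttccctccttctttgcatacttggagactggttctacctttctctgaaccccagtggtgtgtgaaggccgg
Runx1: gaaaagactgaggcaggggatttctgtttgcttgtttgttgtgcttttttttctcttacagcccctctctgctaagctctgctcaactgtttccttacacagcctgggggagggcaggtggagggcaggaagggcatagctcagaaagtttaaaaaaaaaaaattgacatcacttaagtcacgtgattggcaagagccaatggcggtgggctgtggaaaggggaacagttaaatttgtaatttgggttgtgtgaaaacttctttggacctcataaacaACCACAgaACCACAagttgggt
Runx3: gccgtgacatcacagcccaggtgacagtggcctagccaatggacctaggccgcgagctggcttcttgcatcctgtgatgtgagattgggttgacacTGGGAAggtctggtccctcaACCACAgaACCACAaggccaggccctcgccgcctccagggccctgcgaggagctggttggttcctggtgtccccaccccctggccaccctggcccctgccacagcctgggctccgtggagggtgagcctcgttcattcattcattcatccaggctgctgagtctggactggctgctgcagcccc

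Each of the Runx windows held 2 RUNX matches on the same strand, 2 bases apart, within a run of 18 bases that the windows share. The tandem begins 28 bases after the annotated start in Runx1 and 134 bases before it in Runx3. This arrangement, ACCACA repeated after any 2 bases and sought on either strand, was chosen after the windows had been read, and occurs in 7 of all windows (0.0213%). A match is a description of the sequence, and binding was not measured. Neither Runx1 nor Runx3 was called on the arrays.

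The members' positions were also compared. Of the 60 places taken by the nearest 3 measured genes on each side of the 10 members, 3 were held by genes called higher and 2 by genes called lower in Ifitm-/- cells (8.33%, against 8.57% of all genes). None of the 6 neighbours of Ikzf1 was called. Papola, which encodes a poly(A) polymerase and is the second gene before Bcl11b in the gene order, was called higher (change 0.71, adjusted p = 0.0213, limma), and the remaining 5 neighbours of Bcl11b were not.

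Relatives of the members were examined next. Of 25 measured genes of the same families, 1 rose and 2 fell, against 8.57% of all genes called. Ets2, an Ets factor induced by mitogenic signals, fell 4.44-fold, with 8.45 and 8.75 on the Ifitm-/- arrays and 10.80 and 10.71 on the WT arrays (change -2.15, 95% interval -2.50 to -1.80; adjusted p = 0.0131, limma). The interval of Ets1 does not meet that of Ets2. Bach1, a heme-regulated repressor, fell 1.72-fold, with means of 8.28 ± 0.04 in Ifitm-/- cells and 9.06 ± 0.05 in WT cells (SD, n = 2 each; adjusted p = 0.0203, limma). Its interval of -1.0 to -0.56 likewise does not meet that of Bach2, and the difference in change between relatives was not tested for either pair. The X-linked Elf4, an Ets factor that restrains T cell proliferation, rose 1.48-fold to 10.79 ± 0.03 in Ifitm-/- cells, against 10.23 ± 0.10 in WT cells (adjusted p = 0.0396, limma). The brightest relatives not called were Elf1 (change 0.065), Ikzf3 (0.11) and Elk4 (-0.11). Foxp3, the X-linked factor of regulatory T cells, had a change of 0.23 (adjusted p = 0.161, limma) and was singled out after its values were seen. Its levels were 9.19 and 9.17 on the Ifitm-/- arrays and 8.94 and 8.97 on the WT arrays. Ikzf2 (change -0.42, adjusted p = 0.110, limma) and Ikzf4 (-0.28, adjusted p = 0.146) leaned the other way. The share of regulatory cells in the preparations was not tested. Tcf7 and Runx2 were not analysed here.

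Partners and regulators of the members were called in 5 of 25 cases, 2 higher and 3 lower. This was a share of 20% beside 8.57% of all genes and 20.7% of the genes at least as bright as the dimmest member. The list was dimmer than the members, so the 20.7% is not a matched background for it. Its mean level was 9.42 and 9.43 on the Ifitm-/- arrays and 9.52 and 9.53 on the WT arrays. The small Maf proteins pair with Bach2 on DNA. Maff fell 6.20-fold (6.60 ± 0.34 in Ifitm-/- cells and 9.24 ± 0.10 in WT cells, SD, n = 2 each; adjusted p = 0.0141, limma) and Mafk 1.66-fold (adjusted p = 0.0239). Ctnnb1, which encodes β-catenin, the coactivator of Lef1, rose 1.63-fold to 10.14 ± 0.11 in Ifitm-/- cells, against 9.43 ± 0.10 in WT cells (adjusted p = 0.0343, limma). Tle4, a corepressor that Lef1 and Runx proteins recruit, fell 1.51-fold (adjusted p = 0.0289, limma). Hdac1, the histone deacetylase of the NuRD complex with which Ikaros and Bcl11b associate, rose 1.41-fold, with 10.50 and 10.50 on the Ifitm-/- arrays and 9.98 and 10.02 on the WT arrays (adjusted p = 0.0375, limma). Other NuRD genes were not called, among them Gatad2b (change -0.038) and Mbd2 (0.21), which with Tle5 (0.30) were the brightest uncalled partners.

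Of 14 measured genes known to be switched on by Foxo1 or its target Klf2, 3 rose and 3 fell, and the median change was -0.27. Over all genes 4.96% were called higher and 3.61% lower, and over genes of like brightness to the members 8.83% and 11.9%. This list too was dimmer than the members, with a mean level of 9.75 and 9.74 on the Ifitm-/- arrays and 10.02 and 9.96 on the WT arrays. Il7r, the IL-7 receptor chain and a direct Foxo1 target, rose 1.37-fold, with 12.23 and 12.24 on the Ifitm-/- arrays and 11.82 and 11.73 on the WT arrays (adjusted p = 0.0472, limma). Ccr7, which guides naive cells to lymph nodes, fell 1.83-fold, with 12.14 and 12.14 on the Ifitm-/- arrays and 12.99 and 13.03 on the WT arrays (adjusted p = 0.0161, limma). These genes of naive homing and survival thus moved in opposite directions on the same arrays. Irs2 and Fbxo32, Foxo targets of insulin signalling and of protein breakdown, fell 2.82-fold and 2.39-fold (adjusted p = 0.0136 and 0.0133, limma). Klf3 rose 1.88-fold (adjusted p = 0.0214, limma). The brightest genes not called were S1pr1, the receptor for egress from lymph nodes (change -0.28), the cell cycle inhibitor gene Cdkn1b (-0.39) and Sesn3 (-0.25).

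**Figure D3:**
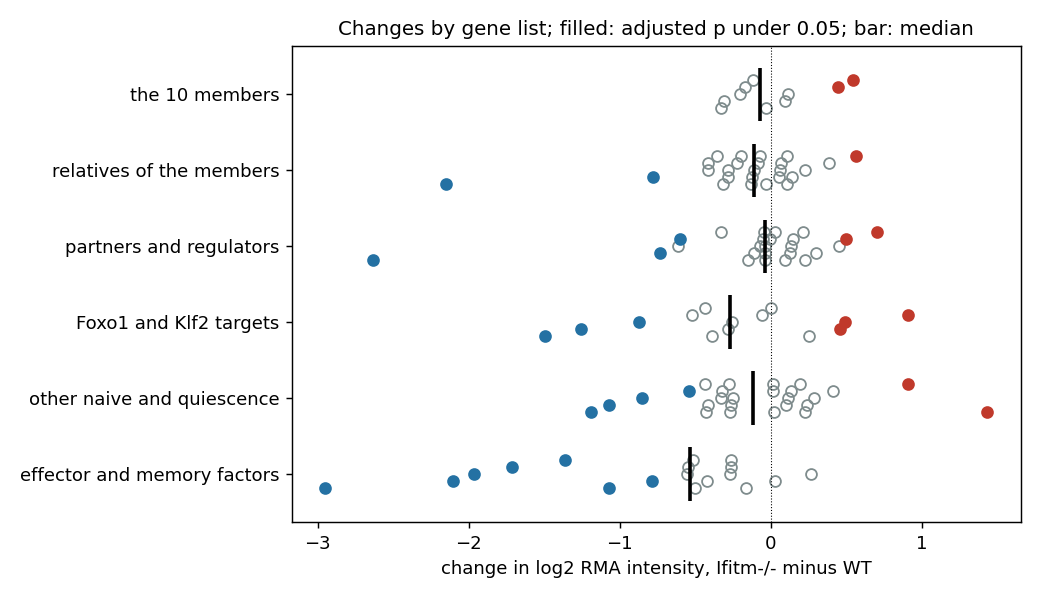
Changes (x axis, log2, Ifitm-/- minus WT) of the 10 members and of 5 lists of related genes; each circle is a gene, filled red or blue where it was called higher or lower at an adjusted p under 0.05, and a black bar marks each median. The members' median is -0.073 and that of effector and memory factors is -0.53, with 7 filled circles, all lower.

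Other factors of naive identity and quiescence were called in 6 of 26 cases, 2 higher and 4 lower, with a median change of -0.12. The called share lay above the 8.57% of all genes and near the 20.7% of genes of like brightness to the members. The list was dimmer than the members, so the 20.7% is not a matched background for it. Its mean level was 9.44 and 9.42 on the Ifitm-/- arrays and 9.52 and 9.54 on the WT arrays. Zbtb7b, which encodes ThPOK, the factor that fixes the CD4 lineage and opposes Runx3, rose 2.71-fold to 9.05 ± 0.07 in Ifitm-/- cells, against 7.61 ± 0.19 in WT cells (SD, n = 2 each; adjusted p = 0.0159, limma). The antiproliferative genes Tob2 and Tob1 fell 2.10-fold and 1.81-fold (adjusted p = 0.016 and 0.0179, limma). The X-linked chromatin gene Phf6 fell 1.45-fold (adjusted p = 0.037, limma). Btg1, whose product keeps naive T cells quiescent, was at 12.82 and 12.85 on the Ifitm-/- arrays and 13.25 and 13.25 on the WT arrays, and its change of -0.41 narrowly missed the threshold (adjusted p = 0.0511, limma). Of the other bright genes, Nfatc3 had a change of 0.025 and Btg2 of -0.27. Klf2 and Klf3 stand in both this list and that of Foxo1 and Klf2 targets. Gata3 stands in both this list and that of effector and memory factors.

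Transcription factors of effector and memory cells, which the resting programme opposes, fell in 7 of 18 cases and rose in 0 (at an unadjusted p under 0.05, 13 lower and 0 higher). Over all genes 3.61% were called lower and 25.8% had an unadjusted p under 0.05 in either direction, and 11.9% of genes of like brightness to the members were called lower. The median change was -0.53, against -0.020 for all genes. The gene lists were chosen with earlier results of these data known, so counts above these shares can reflect that choice. The mean level of this list was 7.94 and 8.07 on the Ifitm-/- arrays and 8.93 and 8.77 on the WT arrays. That of the members was 10.77 and 10.72 on the Ifitm-/- arrays and 10.73 and 10.76 on the WT arrays, so the list was dimmer. Bhlhe40, which supports cytokine production, fell 7.73-fold (7.35 ± 0.27 in Ifitm-/- cells and 10.30 ± 0.01 in WT cells, SD, n = 2 each; adjusted p = 0.0115, limma). Rora, a nuclear receptor of Th17 and innate lymphoid cells, fell 3.90-fold, with 7.80 and 7.62 on the Ifitm-/- arrays and 9.58 and 9.76 on the WT arrays (adjusted p = 0.0131, limma). Nfil3 fell 3.27-fold, the aryl hydrocarbon receptor gene Ahr 2.57-fold and Hif1a 2.10-fold (adjusted p = 0.0161, 0.0212 and 0.0141, limma). The brightest factors not called were Id2 (change -0.26), Gata3 (-0.26) and Maf (-0.27). On the same arrays 9 of 18 immediate early genes, which cells induce within minutes of a stimulus or of handling, fell and 0 rose (12 lower and 1 higher at an unadjusted p under 0.05), beside the same shares, with a mean level of 8.61 and 8.63 on the Ifitm-/- arrays and 9.87 and 9.67 on the WT arrays. Plasma cell markers had a mean of 7.21 and 7.25 over 5 genes on the Ifitm-/- arrays and 8.21 and 7.83 on the WT arrays. The part of either in these results was not tested.

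Markers of T cells and of other cells that a spleen preparation could hold were set beside the members. Over all genes 8.57% were called and 25.8% had an unadjusted p under 0.05 (limma), in either direction. Of 13 B cell, 2 CD8 T cell, 14 myeloid, 4 erythroid and 4 platelet markers, limma called 0, and 0, 1, 1, 0 and 1 of them, in that order, had an unadjusted p under 0.05. Of 9 NK markers, Nkg7 fell and 0 rose, while at an unadjusted p under 0.05 there were 4 higher and 1 lower. Retnlg rose among 6 neutrophil markers, with 1 higher and 0 lower at an unadjusted p under 0.05. Derl3 fell among 5 plasma cell markers, with 0 higher and 5 lower at an unadjusted p under 0.05. Of 12 T cell markers, Cd3d and Cd3g rose by 0.59 each and Cd28 fell by 0.74, and at an unadjusted p under 0.05 there were 6 higher and 1 lower. Cd3e had a change of -0.0087. The part of these cells and of T cell content in the changes of Ikzf1 and Bcl11b was not tested.

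**Figure D4:**
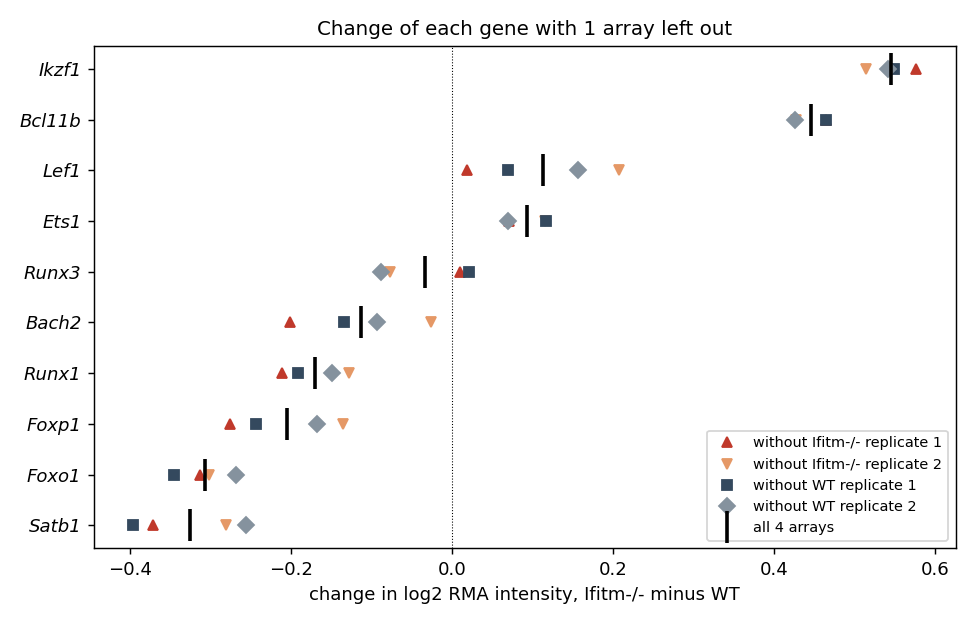
Change of each of the 10 genes (x axis, log2, Ifitm-/- minus WT) on all 4 arrays (black bars) and with each array left out in turn (symbols). Ikzf1 and Bcl11b stay between 0.43 and 0.58, Runx3 lies on both sides of 0, and Lef1 spans 0.018 to 0.21.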

How the data were processed

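The authors deposited linear RMA intensities for 4 arrays, 2 of each genotype. RMA subtracts background, makes the distributions of the arrays equal and joins the probes of a probe set, so a change is measured against the rest of its array. The submitters' processing notes name RMA and affy, without versions. The build behind the probe sets is not given in the sources used here. Median intensities were 75.9 and 74.8 on the Ifitm-/- arrays and 77.1 and 78.1 on the WT arrays. With 2 arrays a genotype, precision is limited by their number.

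The deposited intensities were converted to log2, and a linear model of genotype without covariates was fitted to 34760 probe sets (limma 3.58.1, R 4.3.3, moderated by eBayes). P-values were adjusted over all probe sets by the Benjamini-Hochberg method, and calls were made at an adjusted p under 0.05. The study describes the replicates as biological, each purified separately. In the platform annotation, 21640 probe sets had a single gene, 1321 had more than 1 and 11799 had no gene. Gene IDs of 21553 were found in a GRCm38.p6 gene table, which gave symbols and gene order. The members and gene lists were chosen with earlier results of these data known. For each list, at most 5 called genes with the smallest p and the 3 brightest uncalled genes were named, and any further gene was chosen with its values in view. The fit was tested on simulated data. Alternatives covered the variance prior, normalization, filters, a pseudocount of 16, a replicate block, an ordinary t-test, a criterion on fold and range, and leaving out each array.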

Additional observations from a re-analysis of the deposited data

How the results depend on the processing

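Under the 16 alternatives, 9 of the 10 genes kept the sign of their change. Runx3 alone turned, to 0.0094 with arrays centred on their median, 0.010 without Ifitm-/- replicate 1 and 0.021 without WT replicate 1, and was called in none; leaving out each array gave it -0.088 to 0.021. Ikzf1 and Bcl11b stayed called under both other variance priors, both other normalizations, the pseudocount, both filters and the unadjusted t-test. Leaving out any array gave 0 called members and 0 called probe sets in limma, with 2 to 4 members at an unadjusted p under 0.05.

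The labels number the replicates 1 and 2 in both genotypes. With the replicate number as a block, 0 members and 0 probe sets were called (3 members and 8016 probe sets at an unadjusted p under 0.05), and no called gene of the 5 related lists kept its call. The numbers are not known to pair the samples, and the differences between replicates 1 and 2 correlated at -0.12 between genotypes. With crossed numbers as a block, tried after seeing the data, 0 members and 975 probe sets were called.

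The methods' t-test called 3 members and 6810 probe sets at an unadjusted p under 0.05 and, after Benjamini-Hochberg adjustment, 0 members and 3 probe sets. Requiring of the 2930 probe sets called by limma a fold change over 2 and a span of 250 linear units left 0 members and 403 probe sets. The study describes a criterion of this kind. Its genes of interest, drawn from those that met it, include Bcl11b, which changed 1.36-fold here. The causes of these differences were not tested.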
